A study of Mus musculus with 16 samples.

Results

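Chromatin accessibility around 9 genes of myoblast fusion was examined in C2C12iMyoD1 cells, a polyclonal population of the mouse myoblast line C2C12 that carries dox-inducible V5-Halo-MyoD1 alleles under the TRE3GS promoter beside its own Myod1. The genes were Mymk, Mymx, Cdon, Boc, Kirrel, Adgrb1, Adgrb3, Cd9 and Cd81. They were taken as a list of known fusion genes, and each was given the window of its GENCODE M21 gene body plus 50 kb on each side (mm10, as for all positions). Of the 80290 regions formed by merging the ATAC-seq peaks of 14 libraries, 126 lay in the 9 windows, and 32 of 26213 did so when every list was limited to its 14710 strongest peaks. The cells were kept for 24 h with doxycycline (+dox) or with vehicle alone (no dox), either in growth medium (GM, proliferating) or from the start of serum withdrawal (DM, differentiating). All 4 groups carry the transgene, and dox raises MyoD1 in only a fraction of the nuclei, so every list averages over induced and uninduced cells. Each group had 4 biological replicates. Replicate 1 of both DM groups had been left out by the study for quality, which leaves 4 libraries in each GM group and 3 in each DM group. Seeding was 75000 cells for GM and 300000 for DM, so medium and seeding density cannot be told apart.

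Fusion joins myoblasts into multinucleated myotubes. Cells first recognise and adhere to each other through surface receptors of the immunoglobulin superfamily, actin then pushes the membranes together, and muscle-specific fusogens merge them. Mymk (Myomaker) and Mymx (Myomixer) are those fusogens, and both are switched on during differentiation. Cdon and Boc are co-receptors that promote myogenesis, Kirrel is the vertebrate relative of the fly recognition proteins Kirre and Roughest, Adgrb1 and Adgrb3 are adhesion G protein-coupled receptors, and Cd9 and Cd81 are tetraspanins of the cell surface. An ATAC-seq peak marks DNA that the transposase could reach. It is not a measure of transcription.

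List lengths differed between libraries, and every count from full lists is read beside them. The kept lists held 14710 to 49300 peaks in GM no dox, 36531 to 58587 in GM +dox, 23690 to 40599 in DM no dox and 46241 to 51340 in DM +dox. The left-out lists held 14236 peaks in DM +dox and 1287 in DM no dox. Genome-wide background coverage, recovered from fold enrichment and p, was 0.339 to 1.13 fragments per base in the kept libraries. As a check of the cell type, a peak lay within 1 kb of a start of Myod1 and Chrna1 in all 14 libraries, of Des in 13, of Cdh15 in 10, of Pax7 in 9, of Musk in 8 and of Myf5 in 6, and of Myog in none. Among markers of other cell types, Pecam1 (endothelium) had a start-site peak in 8 libraries, and Ptprc, Cd3e, Cdh5, Epcam, Cdh1, Sox10 and Alb had one in none. Their part in the results was not tested.

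The sequences under 7 of the regions are shown because the results turn on them: the region inside Mymk and upstream regions of Mymx and Cdon, these 3 chosen after their values were seen, and regions with a peak in all 14 libraries near Kirrel, Adgrb1 and Cd9. Each is the 201 bases centred on the strongest summit, read from GRCm38, the assembly of mm10, and each summit lies in an intron or between genes. Capitals mark CAGCTG, the E-box hexamer that MyoD1 prefers, and TGANTCA, the recognition sequence of AP-1. Both read the same on either strand, and in the Adgrb1 window a TGANTCA and a CAGCTG overlap.
Mymk intron (chr2:27069696-27069896, plus strand): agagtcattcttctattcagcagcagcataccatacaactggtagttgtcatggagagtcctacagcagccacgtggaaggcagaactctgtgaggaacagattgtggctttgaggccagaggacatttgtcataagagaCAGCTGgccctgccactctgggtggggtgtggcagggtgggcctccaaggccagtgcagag
Mymx upstream (chr17:45616208-45616408, plus strand): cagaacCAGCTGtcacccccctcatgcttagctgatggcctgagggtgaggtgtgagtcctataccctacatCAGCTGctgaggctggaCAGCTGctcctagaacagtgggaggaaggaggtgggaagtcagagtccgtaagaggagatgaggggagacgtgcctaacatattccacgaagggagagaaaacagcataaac
Cdon upstream (chr9:35372383-35372583, plus strand): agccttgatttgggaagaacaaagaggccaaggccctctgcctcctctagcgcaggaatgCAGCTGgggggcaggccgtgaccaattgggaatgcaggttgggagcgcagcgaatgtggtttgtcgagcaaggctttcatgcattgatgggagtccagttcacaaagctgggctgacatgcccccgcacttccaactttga
Kirrel downstream (chr3:87073276-87073476, plus strand): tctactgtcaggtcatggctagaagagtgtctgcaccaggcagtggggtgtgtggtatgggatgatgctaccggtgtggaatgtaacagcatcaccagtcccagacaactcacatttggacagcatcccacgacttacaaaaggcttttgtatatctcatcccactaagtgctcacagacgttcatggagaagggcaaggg
Adgrb1 downstream (chr15:74622336-74622536, plus strand): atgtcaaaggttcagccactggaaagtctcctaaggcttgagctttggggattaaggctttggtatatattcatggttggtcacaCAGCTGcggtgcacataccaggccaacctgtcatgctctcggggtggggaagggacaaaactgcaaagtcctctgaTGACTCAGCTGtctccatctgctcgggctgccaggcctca
Cd9 downstream, near (chr6:125433842-125434042, plus strand): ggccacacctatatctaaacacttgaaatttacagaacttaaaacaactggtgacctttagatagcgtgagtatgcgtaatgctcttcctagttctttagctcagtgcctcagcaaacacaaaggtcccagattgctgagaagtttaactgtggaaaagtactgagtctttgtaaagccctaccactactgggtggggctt
Cd9 downstream, far (chr6:125413432-125413632, plus strand): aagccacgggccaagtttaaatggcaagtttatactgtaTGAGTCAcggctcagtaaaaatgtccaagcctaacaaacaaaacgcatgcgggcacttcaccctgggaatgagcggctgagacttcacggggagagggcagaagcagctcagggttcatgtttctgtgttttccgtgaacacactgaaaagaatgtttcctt

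Of the 126 fusion gene regions, 32 (25.4%) had CAGCTG no more than 100 bp from the summit, against 19.9% of all 80290 regions. Away from start sites the shares were 24.8% of 105 and 21.2% of 64825. TGANTCA was present in 27.8% of the fusion gene regions and 31.7% of all regions. By gene, 6 of 18 regions held CAGCTG around Mymx, 5 of 14 around Mymk, 5 of 15 around Adgrb1, 5 of 15 around Cd81, 4 of 25 around Cd9, 3 of 16 around Cdon, 3 of 16 around Kirrel, 1 of 6 around Boc and 0 of 1 around Adgrb3. The Mymx upstream window held 3 copies. No test was made of these shares, and the counts by gene are small. In RefSeq promoters (GRCm38.p6, short stretches around each start), 5 of the 9 genes had an entry, and CAGCTG was in those of Cd9 and Cd81, against 16.3% of all 32851 entries.

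**Figure D1:**
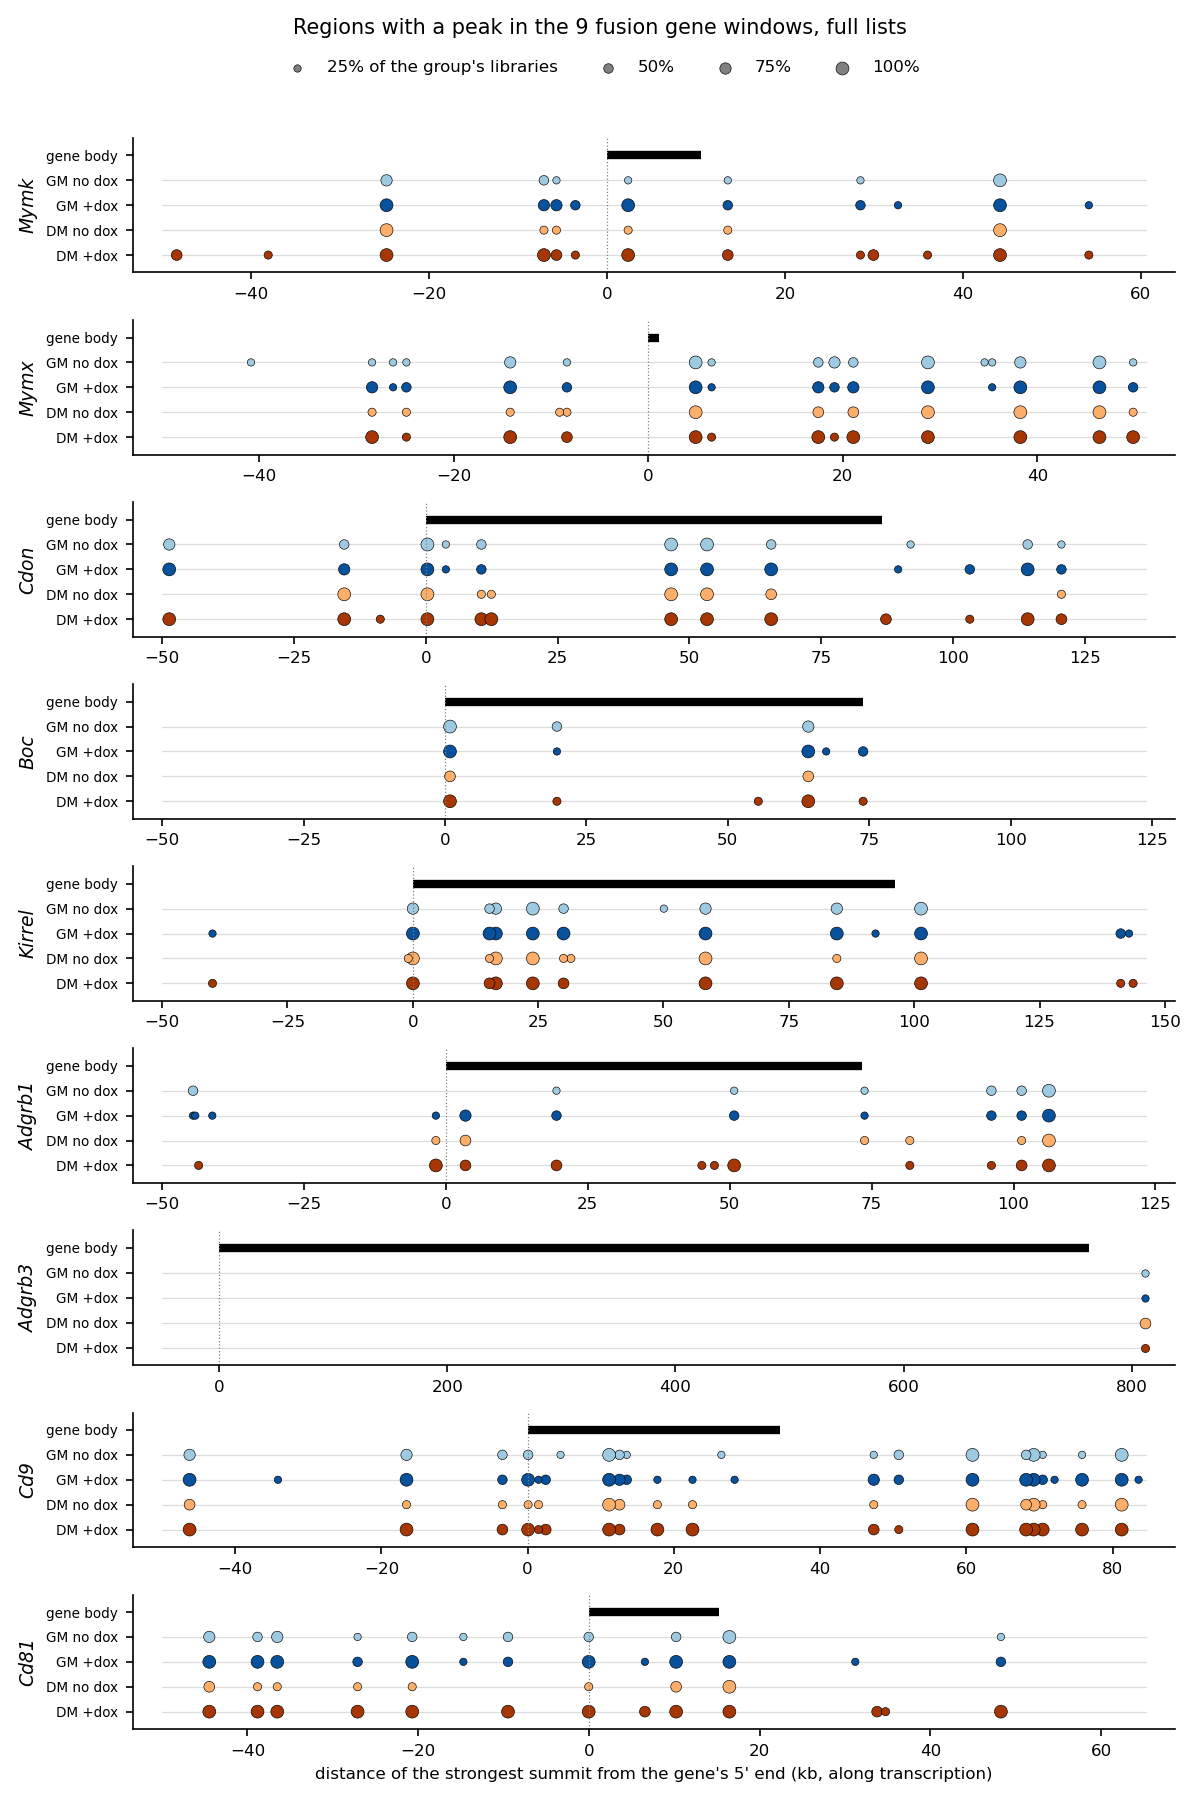
Position of the 126 regions in the 9 windows. Each panel is a gene, with its body as a black bar. The x axis is the distance of the strongest summit from the 5′ end of the gene in kb along transcription, each row is a group, and the size of a point is the share of the group's kept libraries with a peak. Mymk and Mymx have no point at their own 5′ end, Cdon has a full-size point there in all 4 groups, and Adgrb3 has 1 region in its whole window.

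A peak was found in all 14 libraries at 15 of them (11.9%) and in a single library at 30 (23.8%), against 13.8% and 23.5% of all regions. By place, 41 lay in the body of the fusion gene, 9 within 1 kb of its own start sites and 12 within 1 kb of a start site of another gene. The 4 kept lists with the fewest peaks, namely GM no dox replicates 1 and 3 and DM no dox replicates 2 and 3, held 20.4% of fusion gene regions on average. The other 10 lists held 55.2%. Over all regions these shares were 26.0% and 56.1%. The 4 shortest lists all come from no dox groups, so list length and dox move together, and their parts in a count from full lists cannot be told apart. Lists of equal length remove the difference in number but cut the libraries at unlike strength. GM no dox replicate 1 keeps its whole list, down to a −log10 p of 3.94. The weakest peak kept had 11.7 to 36.5 in the other no dox libraries and 22.1 to 54.6 in the +dox libraries.

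The fusogens had no peak at their own start sites. No peak lay within 1 kb of a start of Mymk (ENSMUSG00000009214.9, chr2:27061636-27072179, minus strand) or Mymx (ENSMUSG00000079471.4, chr17:45600971-45602102, minus strand) in any of the 14 libraries, at full list length. At this depth a weak peak could have gone undetected. Mymk itself held 1 region, in an intron 2.38 kb from its 5′ end (chr2:27069659-27069970), with 1 CAGCTG. In GM a peak was called there in 1 of 4 libraries without dox and 4 of 4 with it, and in DM in 1 of 3 and 3 of 3. The authors' fold enrichment over background was 5.23 in GM no dox replicate 2. It was 10.4, 9.38, 6.28 and 7.66 in the GM +dox replicates, 6.12 in DM no dox replicate 4, and 10.8, 8.55 and 9.45 in the DM +dox replicates. All 7 +dox libraries thus had the peak and 5 of the 7 no dox libraries lacked it. Of those 5, GM no dox replicate 4 has a list of 49300 peaks, longer than 4 of the 7 +dox lists. The other 4 are the lists with the fewest peaks. The peak ranked between 22701 and 36193 in the lists that hold it, below the 14710 strongest in each of them, so it appears in no list of equal length. Having been chosen after its values were seen, it was given no test. How many of all regions share this pattern was not counted.

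A further Mymk region lay 7.08 kb upstream (chr2:27078991-27079507, between genes, 117 bp from a start of Adamtsl2) and held 2 copies of CAGCTG. In GM it had a peak in 2 of 4 libraries without dox and 3 of 4 with it, and in DM in 1 of 3 and 3 of 3. The only peak of the Mymk window present in all 14 libraries was at the start of Slc2a6, which encodes a hexose transporter, 44.2 kb downstream of the Mymk 5′ end (chr2:27027702-27028316). Its quantile-normalised fold enrichment was 12.4, 19.8, 17.7 and 18.4 in GM no dox and 19.1, 13.5, 16.1 and 17.7 in GM +dox. It was 14.4, 13.5 and 17.1 in DM no dox and 15.3, 16.5 and 16.7 in DM +dox. All 4 groups overlapped.

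Around Mymx, a gene with a body of 1.13 kb, the constant peaks belonged to its neighbours. Those present in all 14 libraries were at Nfkbie (chr17:45555495-45556089), Hsp90ab1 (chr17:45572440-45574698) and Slc29a1 (chr17:45596511-45597506, 4.87 kb from the Mymx 5′ end and the strongest of the window by mean rank). They encode an inhibitor of NF-kappaB, a heat shock protein and a nucleoside transporter. Upstream of Mymx, the nearest region was at 8.37 kb (chr17:45610222-45610665), with a peak in 6 of 14 libraries. The upstream region found in most libraries lay at 14.2 kb (chr17:45616099-45616831) and had a peak, without and with dox, in 3 and 4 of 4 GM libraries and in 1 and 3 of 3 DM libraries. Where called, its fold enrichment was 9.03, 4.86 and 12.1 in GM no dox replicates 2, 3 and 4, and 11.7, 12.7, 8.71 and 11.1 in GM +dox. It was 11.2 in DM no dox replicate 4 and 11.1, 6.14 and 7.72 in DM +dox. Where the peak was present, the GM groups overlapped, and the single DM no dox value lay just above the highest of the DM +dox libraries. The 3 libraries without it were GM no dox replicate 1 and DM no dox replicates 2 and 3, all among the 4 with the fewest peaks.

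The co-receptors differed from the fusogens in having an accessible start site. At Cdon (ENSMUSG00000038119.15, chr9:35421128-35507652, plus strand) the start-site region chr9:35421020-35422036 had a peak in all 14 libraries. Its normalised fold enrichment was 13.9, 9.72, 12.9 and 12.8 in GM no dox, 9.29, 7.90, 14.7 and 12.7 in GM +dox, 8.91, 12.8 and 13.1 in DM no dox, and 9.30, 14.8 and 13.0 in DM +dox. The groups overlapped throughout. Cdon also held 2 intronic regions with a peak in every kept library, 46.5 kb (chr9:35467359-35468002, with TGANTCA) and 53.3 kb (chr9:35474164-35474722, with CAGCTG) from the 5′ end. The second was the strongest of the window, at ranks 758 to 14225. Boc (ENSMUSG00000022687.12, chr16:44485049-44558897, minus strand) had its strongest region at its start (chr16:44557888-44558942), with a peak in 13 of 14 libraries, absent only from DM no dox replicate 3. Fold enrichment there was 4.02 to 7.87 in GM no dox, 5.33 to 8.69 in GM +dox, 5.46 and 7.64 in the DM no dox libraries that had it, and 7.33 to 11.2 in DM +dox. It was among the 14710 strongest peaks in 1 library, GM no dox replicate 1, whose list is no longer than that.

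The Cdon region farthest upstream, chr9:35372253-35372752 (48.6 kb upstream, between genes, with 1 CAGCTG), was chosen after its values were seen. It had a peak, without and with dox, in 3 and 4 of 4 GM libraries and in 0 and 3 of 3 DM libraries. Fold enrichment was 9.02, 8.40 and 8.41 in GM no dox replicates 2, 3 and 4, 12.5, 12.4, 10.1 and 10.7 in GM +dox, and 15.1, 6.26 and 9.22 in DM +dox. The lists that lack it include DM no dox replicate 4, with 40599 peaks, and those that hold it include GM no dox replicate 3, with 23078. The others that lack it, GM no dox replicate 1 and DM no dox replicates 2 and 3, are among the 4 with the fewest peaks.

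Kirrel (ENSMUSG00000041734.15, chr3:87078593-87174747, minus strand) had a peak at its start (chr3:87174150-87175503) in 13 of 14 libraries, missing only from GM no dox replicate 1, the shortest list. Fold enrichment ranged from 5.36 to 15.2. Its body held 10 of the 16 regions of the window. The strongest, in an intron 23.9 kb from the 5′ end (chr3:87150152-87151246), had a peak in all 14 libraries with normalised values from 13.6 to 18.1 and no difference between groups that exceeded the spread. The other constant region lay beyond the 3′ end, 101 kb from the 5′ end (chr3:87072546-87073554), and held neither motif within 100 bp of the summit.

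The adhesion G protein-coupled receptors had few peaks at their own starts. Adgrb1 (ENSMUSG00000034730.17, chr15:74516195-74589465, plus strand) had a peak within 1 kb of a start in 1 of 14 libraries, DM +dox replicate 4. The constant region of its window was in an intron of the next gene, Mroh4, 106 kb from the Adgrb1 5′ end (chr15:74622060-74623285). It was also the strongest of the 126 by mean rank, at ranks 309 to 5403, and had 2 copies of CAGCTG. Adgrb3 (ENSMUSG00000033569.17, chr1:25067476-25829707, minus strand), the longest of the 9 at 762 kb, had a single region, just inside the far edge of the window (chr1:25017833-25018086), with a peak in 5 of 14 libraries at fold enrichments of 4.27 to 5.79. In lists of equal length it had no peak at all.

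The tetraspanins shared a pattern at their start sites. Cdh15, Stab2 and Dock1, of the other fusion genes counted below, had start-site peaks in the same numbers of libraries per group. Cd9 (ENSMUSG00000030342.8, chr6:125460266-125494791, minus strand) at chr6:125494235-125494903 and Cd81 (ENSMUSG00000037706.17, chr7:143052739-143067934, plus strand) at chr7:143052512-143053721 each had a peak, without and with dox, in 2 and 4 of 4 GM libraries and in 1 and 3 of 3 DM libraries. The Cd9 values were 6.48 and 8.15 in GM no dox, 7.62, 5.38, 7.25 and 6.84 in GM +dox, 5.04 in DM no dox, and 6.17, 6.34 and 5.67 in DM +dox. The Cd81 values were 4.91 and 7.65 in GM no dox, 7.22, 5.49, 7.21 and 7.53 in GM +dox, 6.63 in DM no dox, and 5.32, 8.46 and 7.57 in DM +dox. At both genes the 4 libraries without the peak were exactly the 4 with the fewest peaks, which held 14710 to 24181. The Cd9 peak ranked 22781 to 39145 where present and the Cd81 peak 20448 to 41494. Over the whole genome, 49.3% of the 3632 regions missing from 4 libraries were missing from the same 4.

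Cd9 had the most regions of the 9 genes (25), and 4 of them were present in all 14 libraries. These were an intronic region 11.1 kb from the 5′ end (chr6:125483495-125484113) and 3 regions beyond the 3′ end, at 60.8 kb (chr6:125433709-125434124), 69.2 kb (chr6:125425288-125425857) and 81.3 kb (chr6:125413223-125413962). All but that at 60.8 kb held TGANTCA, which 51.6% of all regions present in the 14 libraries and away from start sites held. Cd81 had 1 constant peak, at the start of Tssc4 in the same window (chr7:143068844-143069602).

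**Figure D2:**
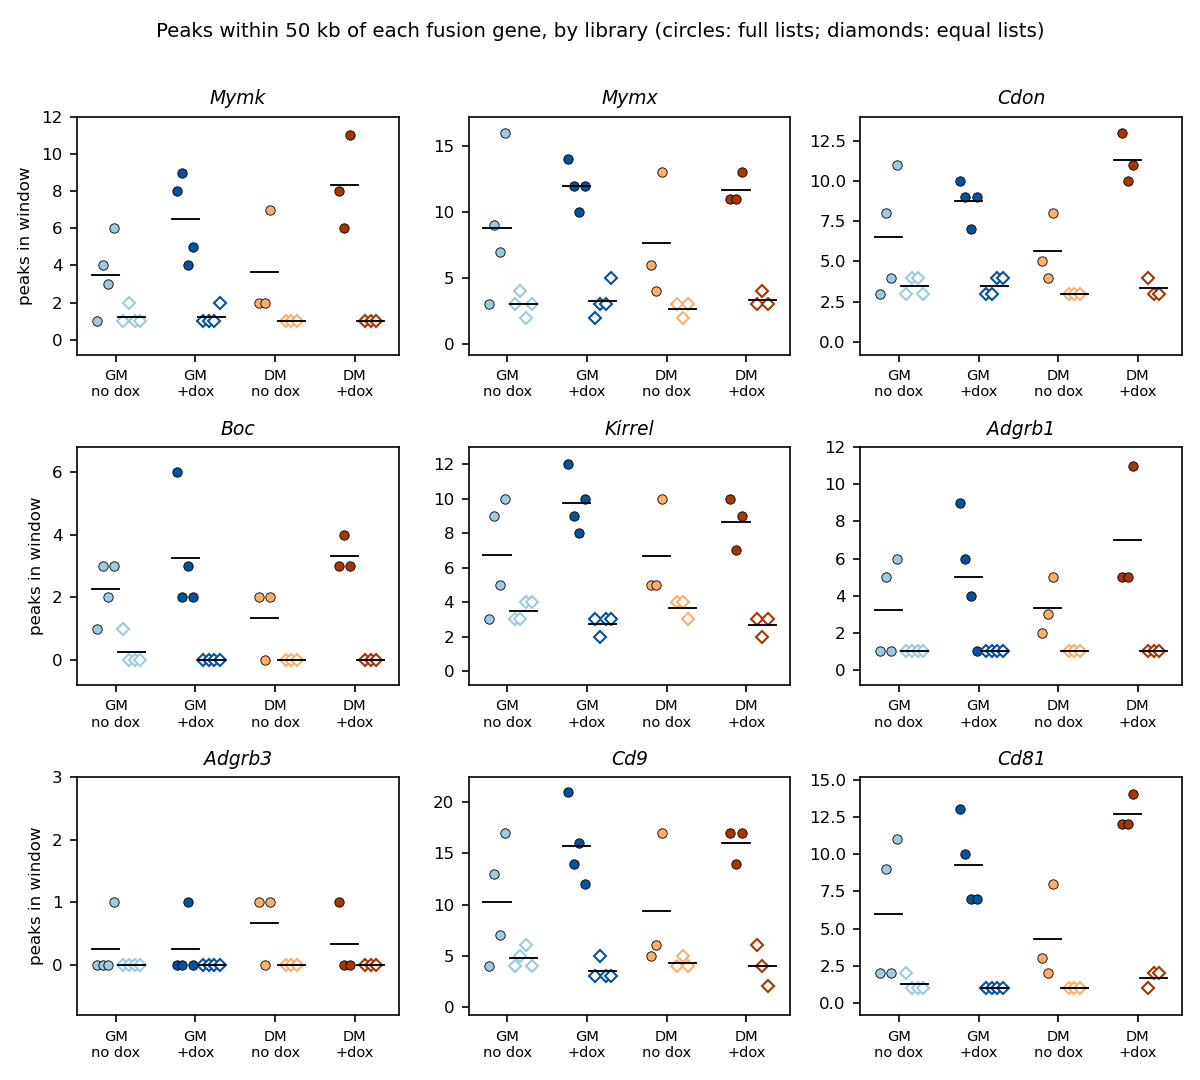
Number of peaks in the window of each gene, per kept library. The x axis gives the 4 groups (n = 4, 4, 3 and 3), filled circles are full lists, open diamonds are the 14710 strongest peaks of each list, and bars are group means. In full lists Cdon, Boc and Cd81 do not overlap between DM no dox and DM +dox, while in equal lists every gene overlaps in every comparison.

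The number of peaks per window was then compared between groups. The 9 windows together held 18, 60, 31 and 81 peaks in GM no dox, 93, 71, 60 and 58 in GM +dox, 31, 26 and 71 in DM no dox, and 80, 69 and 89 in DM +dox. Per 10000 peaks of the list this was 14.3 ± 1.84 (SD, n = 4) for GM no dox and 15.02 ± 1.21 (SD, n = 4) for its +dox counterpart. In DM it was 13.8 ± 3.42 (SD, n = 3) without dox against 16.2 ± 1.61 (SD, n = 3) under dox, and all groups overlapped. In the plot of totals against list length, the 4 shortest lists hold the 4 lowest totals.

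**Figure D3:**
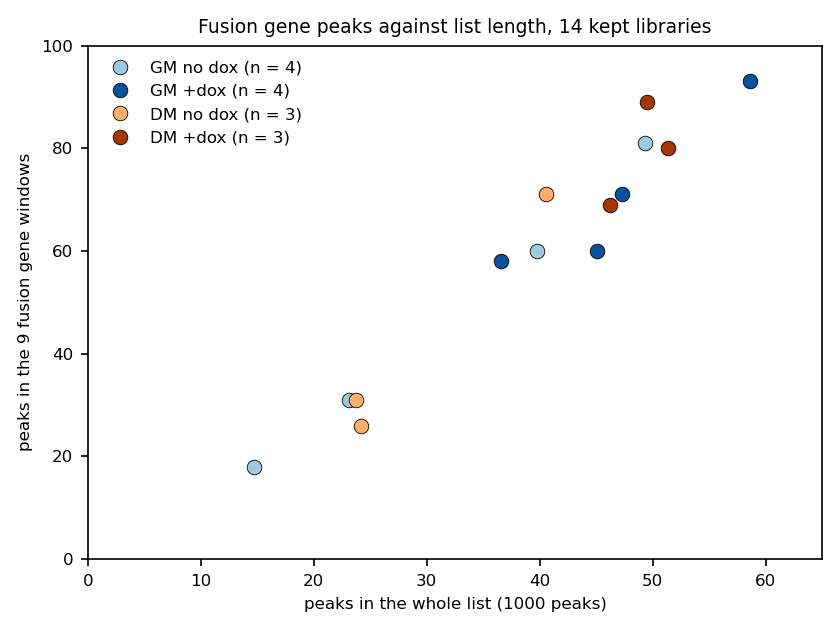
Peaks in the 9 fusion gene windows (y axis) against all peaks of the list (x axis, in units of 1000 peaks), 1 point per kept library, coloured by group. Totals run from 18 in the list of 14710 peaks to 93 in the list of 58587.

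Dox in GM did not separate the groups at any of the 9 genes, in full lists (over all genes tested, 1.44% were separated) or in equal lists (0.429%). Mymk, the gene of the list with the lowest p here, had 1, 4, 3 and 6 peaks without dox and 8, 9, 4 and 5 with it, a difference of means of 3 (two-sided exact permutation p = 0.171, adjusted p = 0.594 with Benjamini-Hochberg over all genes). Cd9 had 4, 13, 7 and 17 peaks without dox and 21, 14, 16 and 12 with it (exact permutation p = 0.229, adjusted p = 0.594). Both overlapped. The mean was higher with dox at 8 genes in full lists and equal at Adgrb3. In equal lists it was higher at 1 gene, Mymx, and lower at 4, and differed by 0.75 or less except at Cd9 (3.50 with dox and 4.75 without).

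Dox in DM gave the only separated genes. In full lists, 3 of the 9 genes had more peaks in every DM +dox library than in any DM no dox library, where 29.0% of all genes tested did and 0% had fewer. Cd81 had 3, 2 and 8 peaks without dox and 12, 12 and 14 with it, Cdon had 5, 4 and 8 against 13, 10 and 11, and Boc had 2, 0 and 2 against 3, 4 and 3. By a two-sided exact permutation test each had p = 0.1, which 3 against 3 libraries cannot go below (adjusted p = 0.345 over all genes). A share of 3 in 9 is near that background. When only libraries of the same number were compared, Mymk and Adgrb1 joined them, so that 5 of 9 genes were higher in every pair against 49.3% of all genes. In equal lists none was separated (2.80% of all genes). Without DM no dox replicate 4, the longest list of its group, 8 of 9 genes were separated in full lists, where 68.5% of all genes were. With all 16 libraries none was (0.409% of all genes).

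Differentiation did not separate any of the 9 genes, either without dox (0.160% of all genes in full lists and 2.90% in equal lists) or with dox (3.05% and 3.27%). The lowest exact permutation p was 0.457 without dox, for Boc (1.33 peaks in DM no dox against 2.25 in GM no dox), and 0.114 with dox, for Cdon (11.3 ± 1.53 in DM +dox, SD, n = 3, against 8.75 ± 1.26 in GM +dox, SD, n = 4). The smallest p of 3 against 4 libraries is 0.0571. Paired by replicate number, Mymx and Boc were lower in DM in every pair without dox (12.3% of all genes), and Cdon, Boc and Cd81 were higher in DM in every pair with dox (16.7%).

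Single regions were also compared by presence and absence. In full lists, 5 of 102 fusion gene regions had a peak in all 3 DM +dox libraries and no DM no dox library (4.90%), against 5.37% of all regions. Besides the upstream Cdon region these were chr9:35535026-35535383 beyond the Cdon 3′ end, chr15:74566805-74567084 in the Adgrb1 window, and chr7:143042993-143043341 and chr7:143100642-143101213 around Cd81, all named after their values were seen. Of these 4, the peak was also found in 2, 1, 2 and 1 of 4 GM no dox libraries in that order. With dox, 1 of 117 regions was present in all DM libraries and no GM library, in a Cdon intron (chr9:35433422-35433739), against 1.49% of all regions. No region qualified for dox in GM (0.446%) or differentiation without dox (0.411%), or in equal lists in any comparison (of all regions, 0.287% and 1.61% for dox in the GM and DM cells, 2.03% and 2.21% for differentiation in no dox and +dox cells).

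**Figure D4:**
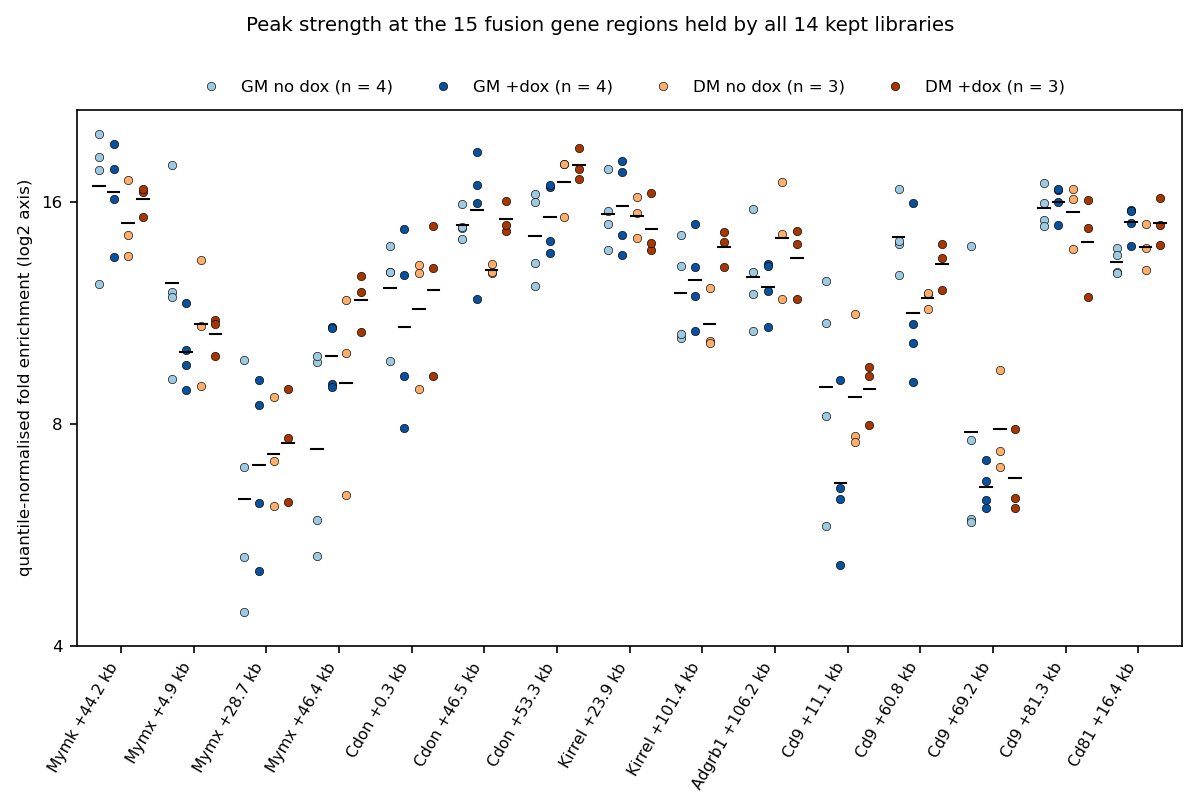
Quantile-normalised fold enrichment (log2 axis) of the 15 regions with a peak in all 14 kept libraries. Points are libraries coloured by group, bars are group means on the log2 scale, and labels give the gene and the distance from its 5′ end in kb. Values run from 4.45 to 19.8, and the strongest regions by mean rank, such as that of the Adgrb1 window, stand beside weaker ones such as the Cd9 intron.

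Peak strength was compared at the 15 regions present in all 14 libraries, by limma on log2 quantile-normalised fold enrichment over all 11046 such regions. Regions lacking a peak in any library could not enter, among them that inside Mymk and those upstream of Mymx and Cdon. For Mymk and Mymx the regions tested lay at starts of Slc2a6, Nfkbie, Hsp90ab1 and Slc29a1. None of the 15 passed an adjusted p of 0.05 in any of the 4 comparisons or in the interaction of dox and medium (Benjamini-Hochberg over 11046 regions). At an unadjusted p under 0.05 the fusion gene counts were 1 and 1 for dox (GM, then DM), 0 and 0 for differentiation (first without dox), and 1 for the interaction. Over all regions, dox gave 0% called in GM and 0% in DM, differentiation gave 0.263% in no dox cells and 0.0453% in +dox cells, and the interaction gave 0%. At an unadjusted p under 0.05 the counts over all regions were 674, 741, 1213, 824 and 240 in that order. The median log2 fold change of the 15 was 0.03 (GM) and 0.07 (DM) for dox, and −0.02 (no dox cells) and 0.10 (+dox cells) for differentiation, beside −0.00 to 0.01 over all regions. Standard errors, those of the interaction included, were 0.11 to 0.34 on the log2 scale, so small changes could not be resolved.

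The lowest p for dox in GM was at the Cd9 region 60.8 kb from the 5′ end. In no dox libraries it measured 16.6, 14.02, 12.7 and 14.2, and in +dox libraries 10.9, 15.95, 10.3 and 9.13. Of the +dox libraries 3 lay below all no dox libraries and replicate 2 lay among them. The log2 fold change was −0.34 (SE 0.15; limma, adjusted p = 0.799). In DM the same region had 11.5, 12.0 and 12.0 without dox and 14.01, 13.4 and 12.1 with dox, and the dox effects of the media differed by 0.49 (SE 0.23; limma, adjusted p = 1.00). The intronic Cd9 region overlapped between the same groups, with 10.9, 8.20, 12.5 and 5.81 without dox against 6.32, 9.18, 6.54 and 5.14 (log2 fold change −0.43, SE 0.22, limma adjusted p = 0.799).

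For dox in DM the lowest p was at the Kirrel region beyond the 3′ end, where no dox libraries measured 12.2, 10.3 and 10.3 and +dox libraries 14.6, 13.1 and 14.1. These groups did not overlap, but the share of all tested regions without overlap was not counted. The log2 fold change of 0.35 (SE 0.17) had an adjusted p = 0.738 in limma. The Nfkbie start site in the Mymx window came next, at 0.37 (SE 0.24, limma adjusted p = 0.794). In GM its values were 5.91, 9.71, 5.29 and 9.88 without dox and 9.07, 10.8, 8.98 and 10.8 with dox, a log2 fold change of 0.42 (SE 0.21, limma adjusted p = 0.799).

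For differentiation the Cdon intronic region 53.3 kb from the 5′ end led without dox. It measured 13.2, 16.4, 15.96 and 12.3 in GM no dox and 15.2, 18.02 and 17.998 in DM no dox, and 14.1, 16.7, 16.8 and 13.6 in GM +dox and 17.2, 18.9 and 17.7 in DM +dox. The log2 fold change was 0.25 (SE 0.13, limma adjusted p = 0.487) without dox, where the groups overlapped. With dox it was 0.23 (SE 0.13, limma adjusted p = 0.746), and the groups did not overlap. Second by p without dox was the Cd9 region at 60.8 kb, at −0.28 (SE 0.16, limma adjusted p = 0.562). Its DM no dox values, given above, all lay below those of GM no dox. At the Cdon region at 46.5 kb these groups did not overlap either, with 14.7, 14.3, 14.8 and 15.9 in GM no dox. There DM no dox had 12.8, 12.8 and 13.2 (log2 fold change −0.20, SE 0.14, limma adjusted p = 0.622). The share of all tested regions without overlap was not counted here either. With dox the lowest p was at the intronic Cd9 region, at 0.42 (SE 0.23, limma adjusted p = 0.745).

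**Figure D5:**
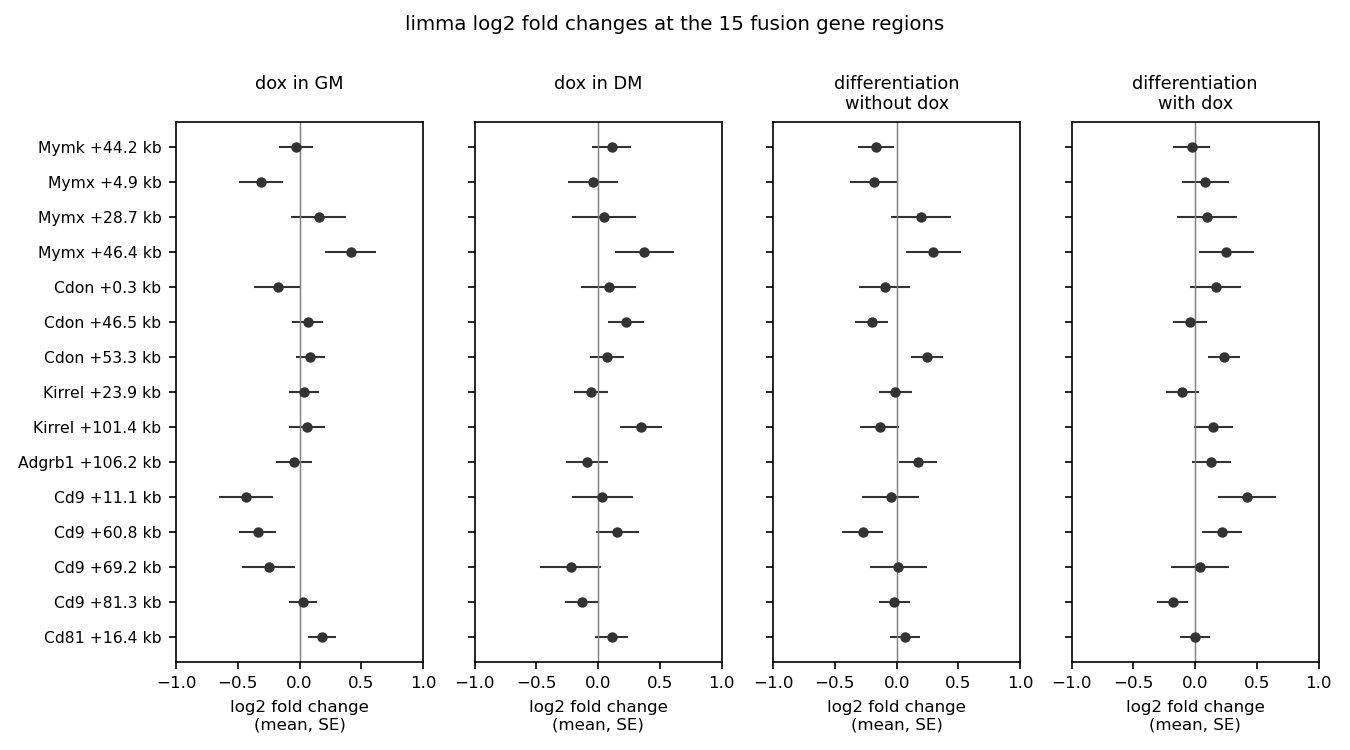
limma log2 fold change (x axis) of each of the 15 regions in the 4 comparisons, with the SE as bars. Labels give the gene and the distance from its 5′ end in kb. None of the 15 passes an adjusted p of 0.05, and the values lie between −0.43 and 0.42.

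Other genes known from fusion were counted in the same way. Of 36 listed genes of adhesion, phosphatidylserine exposure, actin remodelling, membrane repair and regulation, 11 had a start-site peak in all 14 libraries (for example Cdh2, Itgb1 and Rac1), 21 in some and 4 in none (Itga4, Itga9, Nphs1 and Tmem182). For the 9 fusion genes these numbers were 1, 5 and 3. Of 92 regions of 30 of these genes that were present in all 14 libraries, none passed an adjusted p of 0.05 in limma, with 6, 12, 8 and 6 at an unadjusted p under 0.05 in the 4 comparisons. The lowest p was at Itgb1, which encodes the integrin beta-1 chain, for differentiation with dox (chr8:128666580-128667265, log2 fold change −0.99, SE 0.20, limma adjusted p = 0.0801). In peak numbers, 13 of 35 listed genes were separated upward for dox in DM in full lists, against 29.0% of all genes, and in equal lists 2 of 34 were separated, Dock5 and Vcam1, both with fewer peaks under dox (2.80% of all genes).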

How the data were processed

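ATAC-seq was measured in 16 libraries of 4 groups. Per the study's methods, the authors processed reads with nf-core/atacseq against mm10, removed a blacklist and called peaks in each library with MACS2. Replicate 1 of both DM groups was left out, as in the study. The deposited narrowPeak lists give a score, a summit offset (another value, in bases), fold enrichment (a ratio over background) and −log10 of p and q. Scores were not used. Fragment pileup at the summit was solved from fold and p and used as an alternative scale. Peaks overlapping by at least 1 bp were merged over the 14 kept libraries.

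The members and lists were chosen with earlier results of these data known. Regions were named by rule: each gene's start-site and strongest region, and the 2 lowest p per comparison. Other regions named (inside Mymk, upstream of Mymk, Mymx and Cdon, and those present in one group only) and the TGANTCA pattern were chosen after their values were seen. So were comparisons of peak strength given only because the groups did not overlap.

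Fold enrichment was quantile-normalised on the log2 scale and fitted in limma 3.58.1 (R 4.3.3) with Benjamini-Hochberg adjustment. Peak numbers were tested by exact permutation (Python 3.11.15). Both were checked on simulated data. The deviations of libraries with the same replicate number correlated in every pair of the 4 comparisons (r = 0.106 to 0.465). Libraries of unlike number gave r = −0.385 to 0.212, so the ranges overlapped. The numbers may thus pair the samples. The reported tests did not use the pairing, which is given as an alternative. The depth behind a peak is known only as background coverage. The start-site peaks of 2 further markers of other cell types and the sequence of 1 region are not reported here.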

Additional observations from a re-analysis of the deposited data

Results flagged for a closer look

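Of 66 sets of 4 GM libraries checked gene by gene, 8 had a library apart from the others by Dixon's criterion, each with a gap of 1.00 of the range. The criterion is set so that about 1 in 20 sets of continuous values pass by chance. All 8 are small whole numbers with 3 equal values, so a single peak sets the gap and that rate does not apply. In equal lists these were Mymk in GM no dox (replicate 2 had 2 peaks, the others 1) and in GM +dox (replicate 4 had 2, the others 1), Boc in GM no dox (replicate 1 had 1, the others 0), Cd81 in GM no dox (replicate 1 had 2, the others 1), Kirrel in GM +dox (replicate 2 had 2, the others 3) and Cd9 in GM +dox (replicate 2 had 5, the others 3). In full lists they were Adgrb3 in GM no dox (replicate 4 had 1, the others 0) and in GM +dox (replicate 3 had 1, the others 0).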

How the results depend on the processing

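No fusion gene region tested passed in limma in any comparison under any of the 25 alternatives, which tested 8 (equal lists, 10 kb windows) to 31 of them (15 as reported). Over all regions, calls for differentiation without dox ranged from 0 to 130 (29 as reported; 130 with the replicate block) and with dox from 0 to 139 (5 as reported; 139 on −log10 p, 39 with the block). For dox in DM they ranged from 0 to 9 (9 with the block, 0 as reported) and in GM from 0 to 1. Without one library the differentiation calls ranged from 1 to 58 (58 without GM no dox replicate 4) and from 2 to 16 (16 without GM no dox replicate 1), and those for dox in GM reached 6 (without GM no dox replicate 4). Scaling by pileup over background moved the median of all regions by 0.70 and 0.74 for dox (GM, DM) and 0.14 and 0.18 for differentiation, and directions are relative to that shift.

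Separated genes in full lists for dox in DM (3 of 9) were 0 with all 16 libraries (0.409% of all genes). They were 5 with the replicate block (49.3%) and 1 of 8 at −log10 q of at least 5 (27.4%). Leaving out single libraries gave 3 to 8 (29.6% to 68.5% of all genes), with 8 without DM no dox replicate 4 (68.5%). The replicate block gave 2 for differentiation in no dox cells (12.7% of all genes). In +dox cells, where 0 were reported, it was 3 with the replicate block (18% of all genes). In replicate numbers 3 and 4 it was 4 (26.8%). It was 1 of 8 in 10 kb windows (2.25%), 1 at the stricter q (4.08%) and 1 per 10000 peaks (8.82%). Without one library it was 0 to 2, with 2 without GM +dox replicate 1 (10.3%). For dox in GM it was 0 to 1 (1 without GM no dox replicate 4, against 15.9% of all genes). In equal lists all were reported as 0. Replicate numbers 3 and 4 gave 2 for dox in GM (9.25% of all genes) and 1 for dox in DM (10.7%). For differentiation in +dox cells they gave 2 (14.3%). Ranking by fold gave 1 for dox in DM (3.33%). Leaving out single libraries gave 0 to 1 in each of these comparisons. For dox in GM it was 1 without GM +dox replicate 2 (1.32%). For dox in DM it was 1 without DM +dox replicate 2 (7.03%) or DM no dox replicate 4 (7.40%). For differentiation in +dox cells it was 1 without DM +dox replicate 2 (8.66%). The replicate block changed no other call at the fusion genes. The 5 regions with a peak in all DM +dox and no DM no dox libraries became 24 of 98 without DM no dox replicate 4 (16.5% of all regions). They became 12 of 98 without DM +dox replicate 3 (9.47%). The cause of these differences was not tested. Alternatives for presence and absence were chosen after seeing the data.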
